A study of Mus musculus with 24 samples.

Results

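The genes described here are 10 costimulatory and death receptor genes of T cells: the TNF receptor family members Tnfrsf4, Tnfrsf9, Tnfrsf18, Cd27 and Fas, the CD28 family receptors Icos and Cd28, and the TNF family ligands Cd70, Tnfsf14 and Fasl. They were chosen by name, out of 55401 genes in the expression table, and all 10 were among the 14749 genes with enough counts to test. Their levels were followed in cultured mouse CD8 T cells with RNA-seq, and the accessibility of the chromatin around them with ATAC-seq, in which the transposase Tn5 cuts open DNA. All cells came from C57BL/6J mice, were taken with magnetic beads from spleen and lymph nodes, and were activated in culture for 3 days in RPMI-1640 medium with β-mercaptoethanol, glutamine, anti-CD28 at 0.5 μg/mL and IL-2 at 100 U/mL. From day 2 to day 3 the cells received sodium chloride (NaCl, the control), sodium pyruvate or sodium lactate, each at 20 mM, or sodium lactate together with Oxyrase, an enzyme preparation that consumes oxygen and whose amount is not given in the sources used here. Each of these 4 groups had 3 libraries per assay. No group received Oxyrase without lactate, so the lactate+Oxyrase group differs from the lactate group by Oxyrase alone and from the NaCl group by both agents.

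Costimulatory receptors add to the signal of the T cell receptor. CD28 binds CD80 and CD86 and acts through PI3 kinase and protein kinase C theta, and ICOS, its relative, binds ICOS ligand. The TNF receptor family members OX40 (Tnfrsf4), 4-1BB (Tnfrsf9), GITR (Tnfrsf18) and CD27 recruit TRAF adaptors and activate NF-kappaB, which favours survival of activated T cells, whereas Fas has a death domain that recruits FADD and caspase-8. Fas ligand (Fasl) is one of the means by which CD8 T cells kill, CD70 is the ligand of CD27, and LIGHT (Tnfsf14) binds HVEM and the lymphotoxin beta receptor. Since the medium of every group held anti-CD28, all comparisons of these genes are between cells that were costimulated through CD28.

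Depth was 26.0 to 39.6 M counts per library in RNA and 25.3 to 37.1 M in ATAC (M, mega). Levels are given as CPM, counts per mega count of the library, after scaling for library composition, and each difference as a log2 fold change ± SE. A gene or peak is said to have risen or fallen where its p-value in the quasi-likelihood test of edgeR, adjusted over all features of the comparison, was under 0.05. Values in the RNA table carried traces of an earlier adjustment by replicate number, so the spread within groups may be too small. The labels do not state the origin of the replicates (mice or cultures), so p-values measure the spread between these libraries, which may be technical. Each of the 12 RNA libraries lay closest to a library of its own group, but in ATAC NaCl 3 lay closest to lactate 1 and NaCl 1 to pyruvate 1. The T cell and CD8 markers Cd3e, Cd3d, Cd3g, Cd8a, Cd8b1 and Trac summed to 1711 to 1727 CPM in NaCl, 1521 to 1567 in pyruvate, 1587 to 1681 in lactate and 1162 to 1227 in lactate+Oxyrase. Each of them had a lower mean in lactate+Oxyrase than in NaCl, but unevenly. Cd8a went from 690 to 406 CPM, Cd3d from 164 to 140 and Cd3e from 180 to 172. Of the 4 listed markers of CD4 or regulatory T cells, Cd4 stayed at 0.304 to 0.609 CPM. The sum of the 4 went from 28.8 to 31.0 CPM in NaCl to 50.3 to 57.1 in lactate+Oxyrase through Zbtb7b alone, with means of 9.97 and 43.1 CPM. Foxp3 and Ikzf2 went the other way, from means of 4.46 and 14.7 CPM in NaCl to 0.845 and 9.92 in lactate+Oxyrase. Of the B cell markers, Ighm ran from 198 to 207 CPM in NaCl and from 63.3 to 73.4 in lactate+Oxyrase, while Ms4a1 was at most 0.381 and Cd79b at most 3.22 CPM in any library. The 8 myeloid markers summed to at most 6.74 CPM, mostly Cd68, and the 3 NK markers to at most 23.9, mostly Klri2, with Ncr1 at 0 in every library outside NaCl. The part of these shifts in the results below was not tested, and in bulk RNA fewer cells of a type and less RNA per cell cannot be told apart.

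Oxyrase changed most of these genes and in both directions. In lactate+Oxyrase against lactate, 5 of the 10 genes rose (Cd70, Tnfrsf9, Fas, Fasl and Cd28) and 4 fell (Icos, Tnfsf14, Cd27 and Tnfrsf18), where 49.7% of all tested genes were called (26.1% higher, 23.6% lower). Against NaCl, 4 rose (Cd70, Tnfrsf9, Fasl and Tnfrsf4) and the same 4 fell as against lactate, with 50.8% of all genes called (26.5% higher, 24.3% lower). Pyruvate against NaCl gave 3 genes that rose (Fasl, Tnfrsf9 and Cd28) and 2 that fell (Cd27 and Tnfrsf18), with 15.7% of all genes called (9.4% higher, 6.28% lower). Lactate against NaCl gave 1 call, a fall of Cd27, with 7.73% of all genes called (3.61% higher, 4.12% lower). Pyruvate against lactate gave 6 genes that were higher (Cd70, Tnfrsf9, Cd28, Fasl, Fas and Cd27) and 1 that was lower (Tnfrsf4), with 24% of all genes called (13% higher, 10.9% lower). The comparisons share the NaCl, lactate or lactate+Oxyrase libraries and are not independent of each other. The median log2 fold change of the 10 genes was 0.10 in lactate+Oxyrase against lactate, 0.00 against NaCl, 0.04 in pyruvate against NaCl, -0.09 in lactate against NaCl and 0.22 in pyruvate against lactate, and the median of all tested genes was 0.00 in each.

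**Figure D1:**
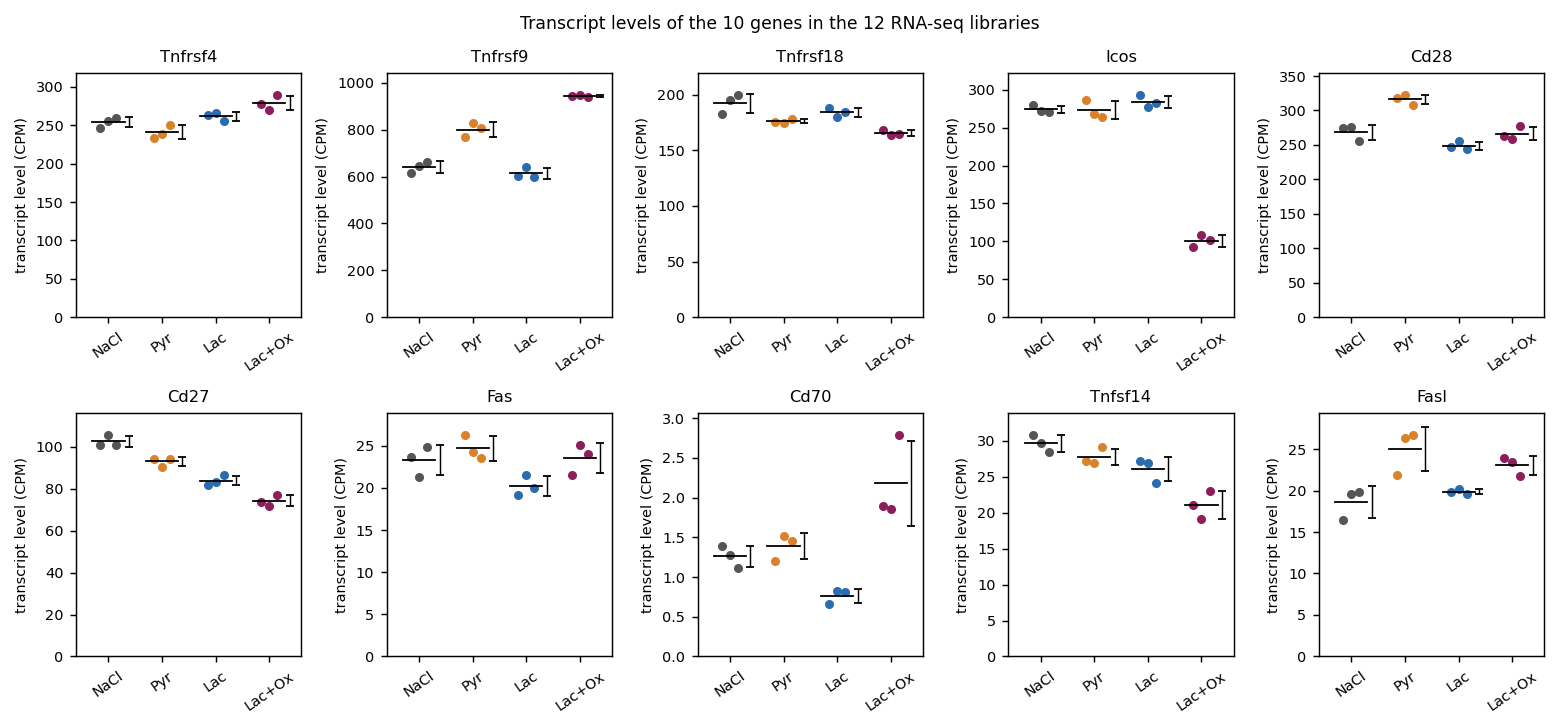
Transcript level (CPM, linear axis from 0) of each of the 10 genes in the 12 RNA-seq libraries by group (NaCl; Pyr, pyruvate; Lac, lactate; Lac+Ox, lactate+Oxyrase). Points are libraries, lines are group means and bars beside them 1 SD (n = 3); Icos is near 101 CPM in lactate+Oxyrase and near 274 to 284 in the other groups, and Tnfrsf9 is highest in lactate+Oxyrase and second in pyruvate.

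Icos, the inducible costimulator, fell with Oxyrase more than any other of the 10 genes. It stood at 280, 272 and 271 CPM in NaCl, 286, 269 and 265 in pyruvate, 293, 277 and 282 in lactate, and 92.0, 108 and 102 in lactate+Oxyrase. The first 3 groups overlapped, and all 3 libraries with Oxyrase lay far below every other library. Icos (ENSMUSG00000026009) was thus 2.82-fold lower in lactate+Oxyrase than in lactate (log2 fold change -1.49 ± 0.05, adjusted p = 3.94e-13) and 2.72-fold lower than in NaCl (-1.44 ± 0.05, adjusted p = 5.49e-13). Pyruvate and lactate did not differ detectably (-0.06, 95% interval -0.16 to 0.04).

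Cd28, which lies 187 kb from Icos on chromosome 1 and encodes the related receptor, had another pattern. Its levels were 274, 275 and 256 CPM in NaCl, 317, 322 and 309 in pyruvate, 247, 255 and 245 in lactate, and 263, 259 and 278 in lactate+Oxyrase. Pyruvate libraries were the highest and overlapped with no other group, whereas NaCl and lactate+Oxyrase overlapped. Cd28 rose with pyruvate by 0.23 ± 0.04 against NaCl (adjusted p = 0.000536) and by 0.35 ± 0.04 against lactate (adjusted p = 6.08e-06). Against NaCl, lactate+Oxyrase left it at -0.01 (95% interval -0.09 to 0.07) and lactate at -0.11 (adjusted p = 0.0858). The rise in lactate+Oxyrase against lactate was small (0.10 ± 0.04, adjusted p = 0.0419), and it was lost without NaCl 2, without any 1 of the 3 pyruvate libraries, without lactate 1 or 3, or without lactate+Oxyrase 1 or 3, where adjusted p was 0.0501 to 0.205. It was also lost with no filter on low counts (adjusted p = 0.107) and with a replicate term (adjusted p = 0.0617). In lactate against NaCl, leaving out NaCl 3 gave a call (-0.14, adjusted p = 0.0374).

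Tnfrsf9, which encodes 4-1BB, a receptor induced on activated CD8 T cells, stood at 615, 645 and 663 CPM in NaCl and at 603, 640 and 599 in lactate, and these groups overlapped. It reached 767, 827 and 807 CPM in pyruvate and 944, 946 and 938 in lactate+Oxyrase. Every pyruvate library lay above every NaCl and lactate library, and every Oxyrase library above every pyruvate library. The rise in lactate+Oxyrase was 0.62 ± 0.04 against lactate (adjusted p = 7.86e-10) and 0.56 ± 0.04 against NaCl (adjusted p = 2.91e-09), and that in pyruvate 0.32 ± 0.04 against NaCl (adjusted p = 2.87e-05) and 0.38 ± 0.04 against lactate (adjusted p = 2.32e-06). Lactate alone left it at -0.06 (95% interval -0.14 to 0.02). These calls held in every alternative and without any single library.

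Tnfrsf4 and Tnfrsf18 encode OX40 and GITR, lie 9.71 kb apart on chromosome 4 and moved in opposite directions in lactate+Oxyrase against NaCl. Tnfrsf4 stood at 247, 255 and 260 CPM in NaCl, 233, 238 and 251 in pyruvate, 263, 266 and 256 in lactate and 278, 270 and 289 in lactate+Oxyrase. The Oxyrase libraries were the highest and lactate came next. NaCl overlapped with lactate and with pyruvate, the lowest group, while all pyruvate libraries lay below all lactate libraries. Its rise against NaCl was 0.14 ± 0.04 (adjusted p = 0.00613), and the value against lactate was 0.09 ± 0.04 (adjusted p = 0.0503). The latter passed the threshold with DESeq2 (adjusted p = 0.0432), without pyruvate 3 (adjusted p = 0.0495) or without lactate+Oxyrase 2 (adjusted p = 0.0335). Pyruvate was lower than lactate (-0.12 ± 0.04, adjusted p = 0.0281), a call that was lost without pyruvate 1 or 2 or lactate 1 or 2, where adjusted p was 0.0764 to 0.118.

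Tnfrsf18 stood at 183, 195 and 199 CPM in NaCl, 175, 175 and 178 in pyruvate, 188, 180 and 185 in lactate and 168, 164 and 164 in lactate+Oxyrase. The Oxyrase libraries were the lowest and pyruvate came next, neither overlapping with another group, while NaCl and lactate overlapped. Tnfrsf18 fell by 0.22 with lactate+Oxyrase against NaCl (SE 0.04, adjusted p = 8.26e-05) and by 0.15 against lactate (SE 0.04, adjusted p = 0.00182). With pyruvate it fell by 0.13 against NaCl (SE 0.04, adjusted p = 0.0233), which was lost without NaCl 2 or 3 or pyruvate 1 or 2 (adjusted p of 0.0628 to 0.101).

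Cd27 encodes a receptor of naive and memory T cells and was the only 1 of the 10 genes called in lactate against NaCl. Its levels were 101, 106 and 101 CPM in NaCl, 94.3, 90.5 and 94.2 in pyruvate, 82.0, 83.2 and 86.4 in lactate, and 73.8, 71.9 and 77.1 in lactate+Oxyrase. The 4 groups followed each other in this order with no overlap. Cd27 fell by 0.29 with lactate against NaCl (SE 0.04, adjusted p = 0.000322) and by a further 0.17 with lactate+Oxyrase against lactate (SE 0.04, adjusted p = 0.00127), so that lactate+Oxyrase lay at -0.47 ± 0.04 against NaCl (adjusted p = 2.93e-08). With pyruvate it fell by 0.14 against NaCl (SE 0.04, adjusted p = 0.0183), a call that was lost without NaCl 2 (adjusted p = 0.096) or pyruvate 2 (adjusted p = 0.0937), and it was higher in pyruvate than in lactate (0.15 ± 0.04, adjusted p = 0.00992).

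Fas, the death receptor, moved little in its transcript. It stood at 23.7, 21.3 and 24.8 CPM in NaCl, 26.3, 24.2 and 23.5 in pyruvate, 19.1, 21.5 and 20.0 in lactate, and 21.6, 25.1 and 24 in lactate+Oxyrase. Lactate was the lowest group, but its libraries overlapped with NaCl. Fas was higher than in lactate with pyruvate (0.29 ± 0.07, adjusted p = 0.00736) and with lactate+Oxyrase (0.22 ± 0.07, adjusted p = 0.0179), the latter lost without lactate 1 or 3 or lactate+Oxyrase 2 or 3 (adjusted p of 0.0579 to 0.0927). Against NaCl none of the 3 treatments was called, with -0.20 for lactate (adjusted p = 0.0998), 0.09 for pyruvate and 0.02 for lactate+Oxyrase (95% interval -0.13 to 0.17).

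The 3 ligands differed from each other. Fasl stood at 16.4, 19.6 and 19.9 CPM in NaCl, 21.9, 26.4 and 26.7 in pyruvate, 19.8, 20.2 and 19.6 in lactate, and 24, 23.4 and 21.8 in lactate+Oxyrase. All pyruvate and Oxyrase libraries lay above all NaCl and lactate libraries. Fasl rose with pyruvate by 0.43 ± 0.08 against NaCl (adjusted p = 0.00172) and 0.33 ± 0.08 against lactate (adjusted p = 0.00589), and with lactate+Oxyrase by 0.31 ± 0.08 against NaCl (adjusted p = 0.00459). Its rise in lactate+Oxyrase against lactate (0.21 ± 0.08, adjusted p = 0.0374) was lost without any 1 of the 3 lactate libraries or without lactate+Oxyrase 1 or 2 (adjusted p of 0.0618 to 0.11).

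Cd70 was the least counted of the 10 genes, with 19 to 92 counts per library. It stood at 1.39, 1.28 and 1.12 CPM in NaCl, 1.2, 1.52 and 1.46 in pyruvate, 0.665, 0.818 and 0.812 in lactate, and 1.89, 1.86 and 2.79 in lactate+Oxyrase. Lactate was the lowest and lactate+Oxyrase the highest group, neither overlapping with another. Cd70 rose 2.83-fold with lactate+Oxyrase against lactate (1.5 ± 0.22, adjusted p = 2.53e-05) and 1.73-fold against NaCl (0.79 ± 0.21, adjusted p = 0.00506). It was higher in pyruvate than in lactate (0.85 ± 0.23, adjusted p = 0.0125), which was lost without pyruvate 2 (adjusted p = 0.0516), and its value in lactate against NaCl was -0.71 ± 0.24 (adjusted p = 0.0719).

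Tnfsf14 lies 39.7 kb from Cd70 on chromosome 17 and went the other way with Oxyrase. Its levels were 30.8, 29.6 and 28.5 CPM in NaCl, 27.2, 26.9 and 29.1 in pyruvate, 27.2, 26.9 and 24.1 in lactate, and 21.1, 19.1 and 23.1 in lactate+Oxyrase. The Oxyrase libraries were the lowest with no overlap, and the other neighbours overlapped. Tnfsf14 fell by 0.49 with lactate+Oxyrase against NaCl (SE 0.07, adjusted p = 1.31e-05) and by 0.30 against lactate (SE 0.07, adjusted p = 0.00145). Against NaCl it was not called with pyruvate (-0.10) or with lactate (-0.19, adjusted p = 0.0948).

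**Figure D2:**
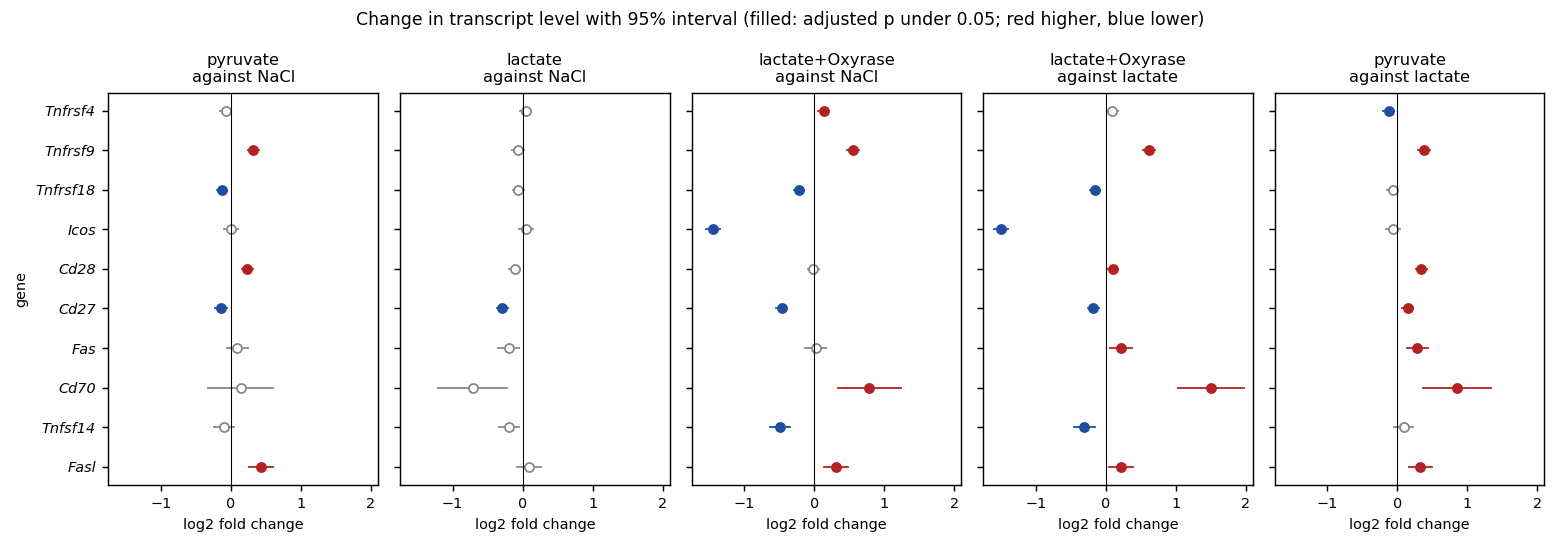
Log2 fold change of the 10 transcripts (horizontal axis) with 95% interval in each of the 5 comparisons. Filled points passed an adjusted p of 0.05, red higher and blue lower in the first-named group; Icos lies near -1.44 and -1.49 in the 2 Oxyrase comparisons and close to 0 in the other 3.

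Among the 10 genes, levels over the 12 RNA libraries followed each other most closely for Cd27 and Tnfsf14 (Pearson r of log2 CPM 0.89) and for Tnfrsf9 and Cd70 (0.85), and ran most opposite for Tnfrsf9 and Tnfrsf18 (-0.84) and for Tnfrsf9 and Icos (-0.82). The tested gene most like Icos was Hmgcs1 (r = 0.996), the one most like Tnfrsf9 was Slamf7 (0.990), and the one most like Tnfrsf18 was Kcnn4 (0.990). For Cd27 it was Sigirr (0.977), for Cd70 Fyn (0.968), for Tnfsf14 Sdhd (0.959), for Cd28 Man1a (0.959), for Fasl Tubb6 (0.952), for Tnfrsf4 Ube2s (0.944) and for Fas Dusp1 (0.885). These are descriptions over 12 libraries that share their groups, so a large step with Oxyrase gives a high r to any gene with such a step.

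The chromatin around the 10 genes was described through 64 of the 75802 peaks, those inside a gene or within 10 kb of it with no other protein-coding gene nearer. Icos and Cd28 had 12 peaks each, Tnfrsf9 10, Fas 6, Cd27, Tnfsf14 and Fasl 5 each, Cd70 4, Tnfrsf18 3 and Tnfrsf4 2. In lactate+Oxyrase against NaCl, 11 of the 64 peaks gained and 13 lost accessibility, 37.5%, where 40.7% of all peaks were called (21.5% higher, 19.2% lower). Against lactate, 5 gained and 14 lost, 29.7%, where 28.4% of all peaks were called (15.6% higher, 12.8% lower). Pyruvate against lactate gave 3 higher and 2 lower peaks, with 11.6% of all peaks called (6.84% higher, 4.78% lower). Lactate against NaCl gave 0 higher and 4 lower, with 6.41% of all peaks called (1.13% higher, 5.28% lower). Pyruvate against NaCl gave 0 calls at these genes with edgeR and with DESeq2, where 0% of all peaks were called. At an unadjusted p under 0.05 there were 2 of the 64, and 5.36% of all peaks.

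RefSeq's promoter table (GRCm38.p6) held 8 start sites of 7 of the 10 genes, for which the 250 bases before each start were searched on both strands for 4 motifs. AP-1 (TGANTCA) matched in 3 of these 8 windows and in 6.75% of the 32851 windows of the table, and NFAT (GGAAA) in 8 and in 55.6%. The hypoxia response element core (ACGTG) matched in 3 of 8 and in 16.6%, and the NF-kappaB consensus in 1 of 8 and in 7.25%. Start peaks of Tnfrsf4, Tnfrsf18 and Cd27 were called with Oxyrase against NaCl or lactate, but their windows held no AP-1 match and are not printed. The 3 windows with an AP-1 match, each in a peak called in lactate+Oxyrase against NaCl, are printed 5′ to 3′ on the gene's strand with the matches in capitals: Fas at chr19:34290409-34290658, strand +, the second start of Tnfrsf9 at chr4:150927749-150927998, strand +, and Tnfsf14 at chr17:57194182-57194431, strand -.
Fas: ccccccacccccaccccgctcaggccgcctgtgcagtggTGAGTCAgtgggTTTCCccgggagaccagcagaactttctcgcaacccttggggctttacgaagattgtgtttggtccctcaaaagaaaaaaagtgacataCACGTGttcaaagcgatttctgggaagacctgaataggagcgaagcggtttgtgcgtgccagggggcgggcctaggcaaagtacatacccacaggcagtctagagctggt
Tnfrsf9, second start: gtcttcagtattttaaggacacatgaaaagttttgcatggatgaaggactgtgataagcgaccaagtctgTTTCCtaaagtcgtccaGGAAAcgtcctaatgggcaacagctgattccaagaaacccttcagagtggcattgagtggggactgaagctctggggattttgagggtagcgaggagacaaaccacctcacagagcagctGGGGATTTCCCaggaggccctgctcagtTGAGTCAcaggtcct
Tnfsf14: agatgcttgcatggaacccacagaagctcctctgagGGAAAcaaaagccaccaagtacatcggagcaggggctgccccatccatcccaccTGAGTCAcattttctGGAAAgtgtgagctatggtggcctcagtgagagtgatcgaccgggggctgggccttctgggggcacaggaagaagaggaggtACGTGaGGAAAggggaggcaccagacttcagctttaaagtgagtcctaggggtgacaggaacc
The Fas window holds an AP-1 match, an NFAT match and the palindrome CACGTG, which contains the hypoxia response core on both strands. The Tnfrsf9 window holds an AP-1 match close to the start, 3 NFAT matches and 2 NF-kappaB matches that overlap each other and 1 of the NFAT matches. The Tnfsf14 window holds an AP-1 match, 3 NFAT matches and 1 hypoxia response core. A match describes letters only.

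The peak over the Fas start (chr19:34290052-34290899, mm10), which covers the printed window, lost accessibility while the Fas transcript was not called against NaCl. Its levels were 57.0, 62.5 and 49.0 CPM in NaCl, 61.1, 63.9 and 56.5 in pyruvate, 49.2, 42.3 and 41.0 in lactate, and 36.5, 37.6 and 36.6 in lactate+Oxyrase. The Oxyrase libraries were the lowest, and NaCl 3 lay just under lactate 1. The peak fell by 0.61 with lactate+Oxyrase against NaCl (SE 0.09, adjusted p = 1.07e-06) and was higher in pyruvate than in lactate (0.45 ± 0.09, adjusted p = 0.00104), both in every alternative. Its fall with lactate against NaCl (-0.34 ± 0.09, adjusted p = 0.0164) was -0.44 without NaCl 3 (adjusted p = 0.000294) and was lost without NaCl 1 or 2 or lactate 2 or 3 (adjusted p of 0.0973 to 0.215). The fall in lactate+Oxyrase against lactate (-0.26 ± 0.09, adjusted p = 0.0332) was lost without lactate 1 (adjusted p = 0.166) or any 1 Oxyrase library (adjusted p of 0.0558 to 0.0839) and under scaling by a trend on mean accessibility (adjusted p = 0.0643), while in the same comparison the transcript stood higher.

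Tnfsf14 showed the reverse, with more accessible chromatin and less transcript in lactate+Oxyrase. The peak 3′ of the gene (chr17:57182767-57183394) stood at 26.6, 26.9 and 24.9 CPM in NaCl, 24.7, 25.8 and 25.4 in pyruvate, 29.9, 23.1 and 28.9 in lactate, and 39.5, 43.1 and 36.3 in lactate+Oxyrase. All Oxyrase libraries lay above all others. It rose by 0.60 ± 0.09 against NaCl (adjusted p = 8.78e-07) and by 0.54 ± 0.09 against lactate (adjusted p = 1.65e-05). The peak over the start (chr17:57193854-57195001) rose by 0.22 ± 0.08 against NaCl (adjusted p = 0.0317), from 59.2 ± 0.676 to 69.0 ± 1.72 CPM (SD, n = 3), which was lost without NaCl 1 or 2 or lactate+Oxyrase 2 or 3 (adjusted p of 0.0587 to 0.0939). With RLE scaling its adjusted p was 0.0729, and with only these 2 groups in the fit 0.0763. Over all alternatives its log2 fold change ran from 0.19 to 0.48. Against lactate the mean of this start peak went from 61.0 to 69.0 CPM. There its log2 fold change was 0.16 to 0.28 over the alternatives (adjusted p of 0.000847 to 0.245). Of the 5 peaks of Tnfsf14, 4 rose and 1 fell in lactate+Oxyrase against NaCl. The 1 that fell (chr17:57188628-57189228, -0.31) lay 246 bases from the 3′ end of the gene. Against lactate 3 rose and 0 fell.

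Both peaks that flank Tnfrsf18 lost accessibility with Oxyrase, the direction of its transcript, but they were assigned to it by distance only. The 5′ peak lay 3624 bases from Tnfrsf18 and 4897 from Tnfrsf4, whose transcript rose against NaCl. The 3′ peak lay 1713 bases from Tnfrsf18 and 3541 from Ttll10. The peak 5′ of the gene (chr4:156021510-156022698) stood at 87.8, 92.6 and 84.8 CPM in NaCl, 92.5, 86.9 and 84.2 in pyruvate, 85.3, 84.2 and 77.0 in lactate, and 62.3, 61.4 and 60.7 in lactate+Oxyrase. The first 3 groups overlapped and the Oxyrase libraries lay below all of them (-0.52 ± 0.09 against NaCl, adjusted p = 4.19e-06, and -0.42 ± 0.09 against lactate, adjusted p = 0.000284). The peak 3′ of the gene (chr4:156030607-156031294) stood at 57.0, 57.6 and 51.6 CPM in NaCl, 58.9, 55.9 and 51.0 in pyruvate, 44.7, 46.7 and 41.0 in lactate, and 36.9, 35.3 and 34.3 in lactate+Oxyrase. It fell by 0.64 with lactate+Oxyrase against NaCl (SE 0.09, adjusted p = 1.34e-07). Against lactate it was called lower at -0.31, a call that was lost without lactate 2 (adjusted p = 0.0517). With lactate against NaCl it fell by 0.33 (SE 0.09, adjusted p = 0.0164), which was -0.38 without NaCl 3 (adjusted p = 0.00138). That call was lost without NaCl 1 or 2 or lactate 3 (adjusted p of 0.113 to 0.166) and under scaling by a trend on mean accessibility (adjusted p = 0.0563). The peak over the start of Tnfrsf18 was at -0.20 against NaCl (adjusted p = 0.127). Against lactate it fell by 0.28 (SE 0.10, adjusted p = 0.0391), which was lost without lactate 2 or 3 or lactate+Oxyrase 2 or 3 (adjusted p of 0.0519 to 0.259) and with only these 2 groups in the fit (adjusted p = 0.0651). In pyruvate against lactate the 3′ peak was called higher (0.33, adjusted p of 0.00154 to 0.107 over the alternatives), while the transcript was at -0.07 and not called. In pyruvate against NaCl, where the transcript was lower, the log2 fold changes of the 3 peaks ran from -0.01 to 0.09.

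**Figure D3:**
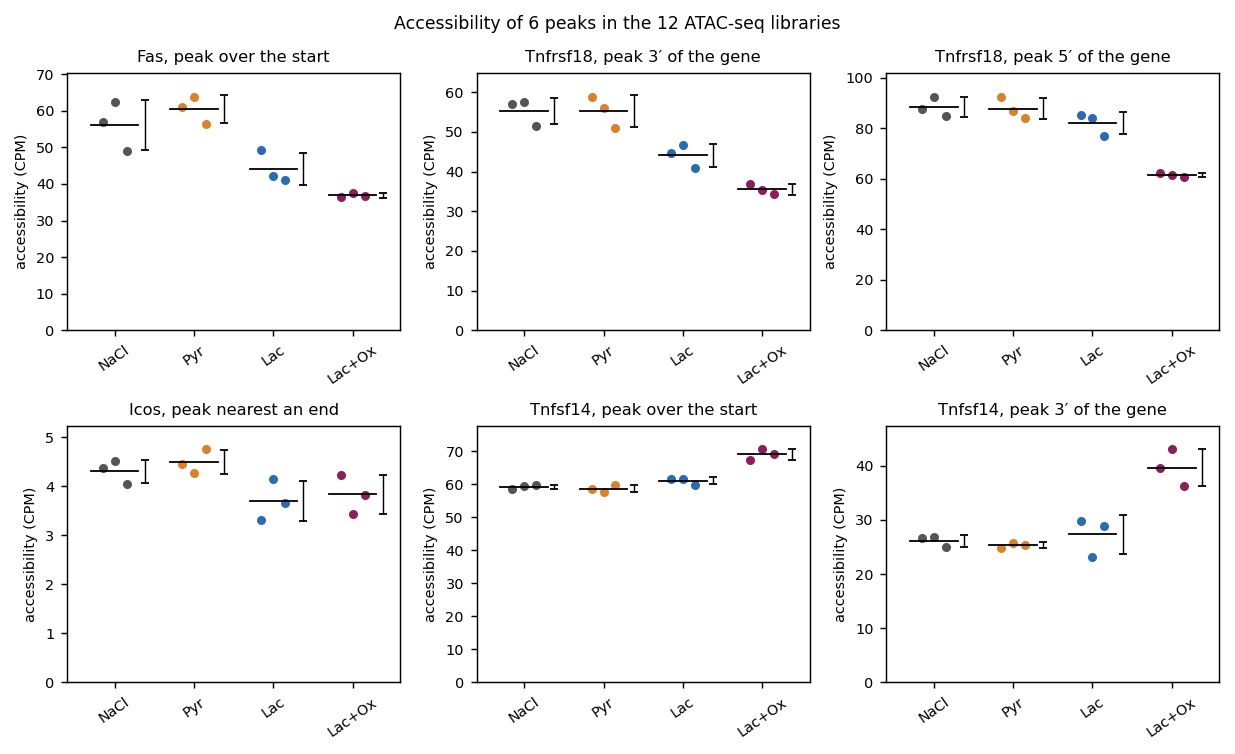
Accessibility (CPM, linear axis from 0) of 6 peaks at Fas, Tnfrsf18, Icos and Tnfsf14 in the 12 ATAC-seq libraries by group (labels as in the plot of transcript levels). Points are libraries, lines are means and bars 1 SD (n = 3). The Oxyrase libraries are lowest at the Fas start and both Tnfrsf18 flanks and highest at both Tnfsf14 peaks. At the Icos peak nearest an annotated end they overlap with NaCl and lactate and lie below pyruvate.

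The 2.82-fold fall of the Icos transcript had no counterpart of that size in its 12 peaks. The peak nearest an annotated end of Icos (chr1:60961032-60961338) stood at 4.36, 4.51 and 4.04 CPM in NaCl, 4.45, 4.26 and 4.76 in pyruvate, 3.32, 4.14 and 3.65 in lactate, and 4.24, 3.43 and 3.83 in lactate+Oxyrase. These groups overlapped for Oxyrase against both NaCl and lactate, and with 108 to 159 counts per library the 95% interval against lactate ran from -0.27 to 0.38. Inside the gene, the peak at chr1:60975113-60975695 fell by 0.61 with lactate+Oxyrase against NaCl (SE 0.13, adjusted p = 0.000142), from 10.0 ± 1.09 to 6.56 ± 1.04 CPM (SD, n = 3). The peak at chr1:60974115-60974486 fell by 0.60 against lactate (SE 0.14, adjusted p = 0.000861), from 7.77 ± 0.587 to 5.12 ± 0.958 CPM. Over the 12 peaks the log2 fold change against NaCl ran from -0.61 to 0.81, with 2 called higher and 2 lower. The most accessible of the 12 (chr1:60977580-60977998) averaged 15.5 CPM in NaCl, 15.5 in pyruvate, 16.1 in lactate and 16.0 in lactate+Oxyrase.

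Of the 10 peaks of Tnfrsf9, 1 was called higher and 1 lower in lactate+Oxyrase against NaCl, while its transcript rose. Of all peaks, 40.7% were called in that comparison. The most accessible peak of Tnfrsf9 (chr4:150924103-150925278) averaged 88.1 CPM in NaCl, 87.5 in pyruvate, 90.9 in lactate and 87.3 in lactate+Oxyrase. The first RefSeq start lay in no peak, and the peak over the second start (chr4:150927498-150928283, chosen after its values were seen) stood at 38.1, 35.3 and 35.5 CPM in NaCl and at 29.9, 29.5 and 31.5 in lactate+Oxyrase, with no overlap. Its fall (-0.26 ± 0.09, adjusted p = 0.013) was lost without NaCl 1 (adjusted p = 0.0721) and under scaling by a trend on mean accessibility, which gave -0.08 (adjusted p = 0.426). The peak at the 3′ end (chr4:150945795-150947396) rose by 0.53 ± 0.12 against NaCl (adjusted p = 0.000298), from 13.5, 10.6 and 14.4 CPM to 19.4, 14.7 and 21.7. The peak over the start of Tnfrsf4 (chr4:156013560-156014329) fell with Oxyrase against NaCl (-0.34 ± 0.10, adjusted p = 0.00477), from 18.1, 19.3 and 21.0 CPM to 16.3, 14.2 and 15.6, where the Tnfrsf4 transcript rose. This peak also overlaps the neighbouring gene Sdf4, so it cannot be assigned to Tnfrsf4 alone.

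In Cd28 the intragenic peak at chr1:60755440-60756173 rose by 0.39 ± 0.09 with lactate+Oxyrase against NaCl (adjusted p = 0.000556) and the one at chr1:60749875-60750362 fell by 0.54 (SE 0.13, adjusted p = 0.000658), while the peak at its annotated end was at 0.17 (adjusted p = 0.119). The same Cd28 peak at 60749875 fell with lactate against NaCl (-0.46 ± 0.13, adjusted p = 0.0201), from 9.15, 9.13 and 8.93 CPM to 6.06, 7.01 and 6.68. It was -0.48 without NaCl 3 (adjusted p = 0.0163), and the call was lost without NaCl 1 or 2 or lactate 1 or 3 (adjusted p of 0.086 to 0.105). At Fasl, the peak at chr1:161774712-161775660, 3′ of the gene, fell by 0.36 with lactate+Oxyrase against NaCl (SE 0.09, adjusted p = 0.00139), from 26.8, 28.1 and 27.9 CPM to 22.1, 22.7 and 19.7, and the peak over its start was at 0.09 (adjusted p = 0.442), while the transcript rose.

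At Cd27, the peak over the start (chr6:125236622-125237750) stood at 34.9, 36.2 and 31.6 CPM in lactate and at 30.8, 26.0 and 27.7 in lactate+Oxyrase, with no overlap. It fell by 0.28 (SE 0.09, adjusted p = 0.0177), which was lost without lactate 2 or lactate+Oxyrase 2 or 3 (adjusted p of 0.0538 to 0.101) and under scaling by a trend on mean accessibility (adjusted p = 0.0767), and against NaCl it was at -0.03 (adjusted p = 0.819). The peak 5′ of the gene (chr6:125240699-125240909) fell by 0.47 with lactate+Oxyrase against lactate (SE 0.11, adjusted p = 0.00138), the direction of the transcript in that comparison. Its levels were 13.0, 12.5 and 13.0 CPM in lactate and 10.1, 8.17 and 9.52 in lactate+Oxyrase, with no overlap. In pyruvate against lactate the same peak was called lower (-0.36), with means of 9.97 and 12.8 CPM, whereas the Cd27 transcript was higher. Over the alternatives the adjusted p of that peak ran from 0.00813 to 0.0977. At Cd70, whose transcript was lowest in lactate, the peak at chr17:57146744-57147183, within 1 kb of an annotated end, had its lowest mean in lactate too. It stood at 4.4, 4.94 and 4.23 CPM there against 5.52, 6.25 and 5.29 in NaCl and 4.86, 7.54 and 6.89 in lactate+Oxyrase. Lactate and lactate+Oxyrase overlapped, and the peak was not called in lactate against NaCl. The rise with Oxyrase against lactate (0.51 ± 0.15, adjusted p = 0.00896) was lost without lactate+Oxyrase 2 (0.37, adjusted p = 0.093). A second Fas peak, inside the gene (chr19:34320874-34321002), had 34 to 79 counts per library and fell with lactate against NaCl (-1.0 ± 0.27, adjusted p = 0.0164). Its levels were 2.89, 2.92 and 1.40 CPM in NaCl and 1.05, 1.38 and 1.16 in lactate, so that NaCl 3 stood near lactate. Without NaCl 3 its value was -1.29 (adjusted p = 0.000466), and the call was lost without NaCl 1 or 2 or lactate 1 or 3 (adjusted p of 0.0577 to 0.186). For all 4 falls together, the count of called peaks in lactate against NaCl was 12 of 64 without NaCl 3 and 0 without NaCl 1, NaCl 2 or lactate 3, and the count over all peaks was 11317 without NaCl 3 against 4857 with it.

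**Figure D4:**
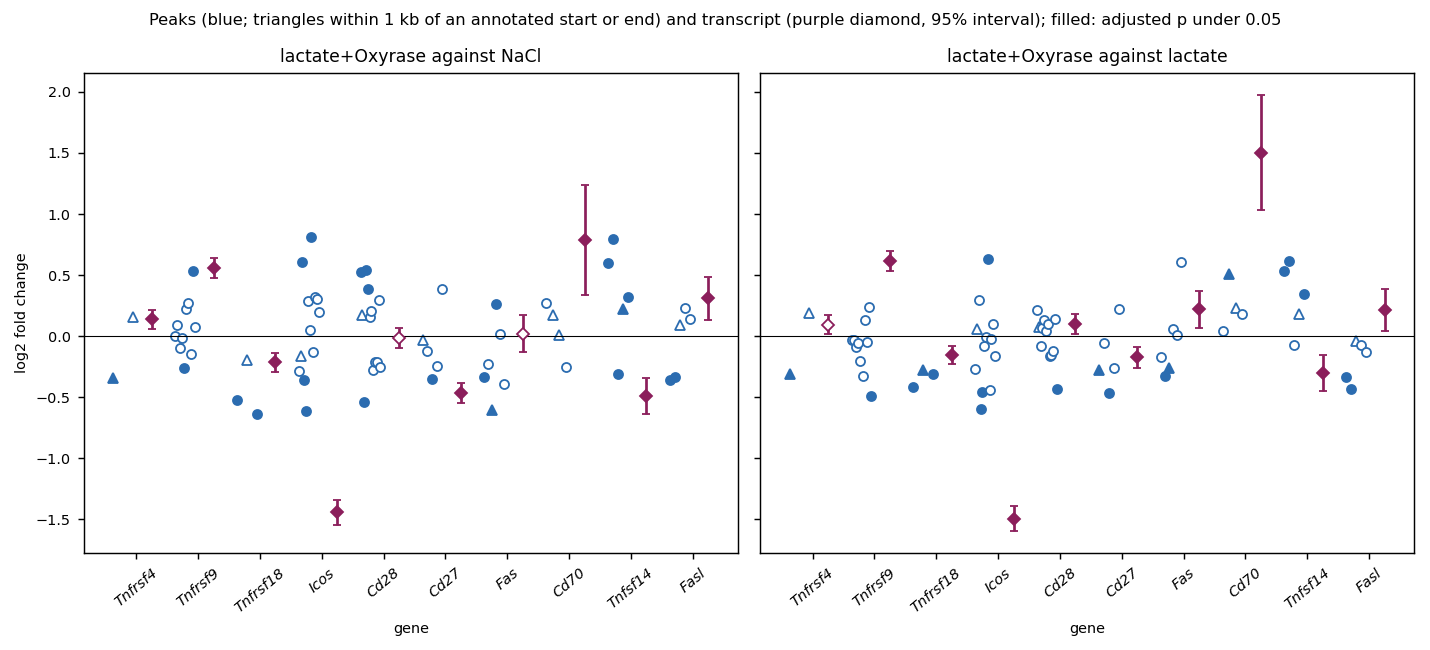
Log2 fold change (vertical axis) of each peak (blue; triangles within 1 kb of an annotated start or end) and of the transcript (purple diamond with 95% interval) of the 10 genes in lactate+Oxyrase against NaCl and against lactate. Filled symbols passed an adjusted p of 0.05; the peaks lie between -0.64 and 0.81, and the Icos transcript at -1.44 and -1.49 lies below all of them.

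The partners of these receptors and ligands were counted from lists of related genes. Of 20 measured other TNF receptors, 10 rose and 5 fell in lactate+Oxyrase against lactate, where 49.7% of all tested genes were called, among them CD30 (Tnfrsf8), which rose 3.94-fold from 1.27 to 5.03 CPM (1.98 ± 0.20, adjusted p = 3.24e-07). In pyruvate against lactate, where 24% of all genes were called, 6 were higher and 1 lower. Of 10 measured other TNF family ligands, 8 were higher and 0 lower in pyruvate than in lactate (24% of all genes called), among them OX40 ligand (Tnfsf4), the partner of Tnfrsf4, which was 2.17-fold higher (1.12 ± 0.08, adjusted p = 4.66e-08), and CD30 ligand (Tnfsf8), which was 2.22-fold higher (1.15 ± 0.07, adjusted p = 5.4e-09). Both fell with lactate against NaCl, Tnfsf4 by 0.62 (SE 0.08, adjusted p = 0.000297) and Tnfsf8 by 0.50 (SE 0.07, adjusted p = 0.000395), and in that comparison 1 ligand rose and 4 fell in all, with 7.73% of all genes called. With lactate+Oxyrase against NaCl, where 50.8% of all genes were called, 3 ligands rose and 3 fell, among them lymphotoxin beta (Ltb), 3.11-fold lower (-1.64 ± 0.09, adjusted p = 2.48e-10), and lymphotoxin alpha (Lta), 1.76-fold higher (0.82 ± 0.05, adjusted p = 6.08e-10).

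Of 15 measured B7 ligands and SLAM family or nectin-binding costimulators, 4 rose and 9 fell in lactate+Oxyrase against NaCl, where 50.8% of all genes were called (26.5% higher, 24.3% lower). The median log2 fold change of this list was -0.63, against 0.00 over all genes. Slamf6, a SLAM family receptor, fell 4.02-fold from 23.8 to 5.89 CPM (-2.01 ± 0.09, adjusted p = 7.67e-12), and Cd226, the activating receptor DNAM-1, fell 2.58-fold from 119 to 46.0 CPM (-1.37 ± 0.07, adjusted p = 6.12e-11). CD80, a ligand of CD28 that activated T cells also express, fell with lactate against NaCl from 124 to 99.9 CPM (-0.32 ± 0.05, adjusted p = 0.000687).

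Among 21 genes of TRAF adaptors and NF-kappaB, 13 rose and 4 fell in lactate+Oxyrase against lactate, where 49.7% of all genes were called (26.1% higher, 23.6% lower). Nfkb2, which encodes the p100 precursor of the noncanonical pathway, rose 2.03-fold from 254 to 516 CPM (1.02 ± 0.04, adjusted p = 1.15e-12), its partner Relb 1.77-fold (0.83 ± 0.05, adjusted p = 5.9e-10), and Traf1, an adaptor of 4-1BB, 1.66-fold (0.73 ± 0.04, adjusted p = 3.33e-10). With lactate against NaCl 0 rose and 6 fell (7.73% of all genes called), and with pyruvate against lactate 8 were higher and 0 lower (24% of all genes called).

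Of 20 genes of Fas signalling and apoptosis, 3 rose and 13 fell in lactate+Oxyrase against NaCl, where 50.8% of all genes were called (26.5% higher, 24.3% lower). Bid, which links caspase-8 to mitochondria, fell 1.60-fold (-0.68 ± 0.05, adjusted p = 1.77e-08), and Bcl2l11, which encodes the death promoter BIM, fell 1.58-fold (-0.66 ± 0.05, adjusted p = 2.63e-09). Cflar, the inhibitor of caspase-8 called c-FLIP, rose 1.53-fold in lactate+Oxyrase against lactate (0.62 ± 0.04, adjusted p = 2.61e-09) and was 1.43-fold higher in pyruvate than in lactate (0.51 ± 0.04, adjusted p = 2.34e-07). Bcl2l11 was 1.93-fold higher in pyruvate than in lactate (0.95 ± 0.04, adjusted p = 2.76e-10). It was 1.66-fold higher in pyruvate than in NaCl (0.73 ± 0.04, adjusted p = 8.17e-09). In pyruvate against lactate, 6 of the 20 genes were higher and 3 lower, with 24% of all genes called. Of 14 genes of CD28 signalling, 1 rose and 10 fell in lactate+Oxyrase against NaCl, with the same 50.8% of all genes called, among them the adaptor Grap2, 1.95-fold lower (-0.96 ± 0.05, adjusted p = 3.1e-11), and Prkcq, which encodes protein kinase C theta, 1.47-fold lower (-0.56 ± 0.04, adjusted p = 1.15e-09).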

How the data were processed

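Per the submitters' processing notes, reads were handled with Trimmomatic, RSEM 1.2.12, Bowtie2 2.2.0, BWA, Picard, MACS2, bedtools and edgeR 3.20.9 on mm10, with no further parameters given in the sources used here. The deposited RNA values are estimated counts per gene, made by the authors with RSEM per the submitters' processing notes. The ATAC table, as deposited by the authors, holds read counts in 75802 peaks for 12 libraries. Of the non-zero RNA values 99.24% were whole within 1e-09, while 460 genes held a fractional value above 1, and in 448 of them every library of 1 replicate number was at 0.

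Expected counts were rounded, features with low counts removed (filterByExpr; 14749 of 55401 genes and all peaks kept), libraries scaled by TMM, and 1 model per assay fitted to its 12 libraries with edgeR 4.0.16 (quasi-likelihood test, two-sided, 8 residual degrees of freedom, Benjamini-Hochberg adjustment over all features, threshold 0.05) in R 4.3.3. SEs were derived from the F statistic. Biological variation between replicates (edgeR's coefficient) came to 5.05% for the RNA and 9.70% for the ATAC libraries. Symbols matched 55141 of 55401 identifiers. Peaks were placed with RefSeq gene coordinates of GRCm38.p6, the assembly that mm10 names. Log2 CPM used a prior count of 2.

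All 10 genes are named throughout; of the related gene lists, genes were taken from the up to 3 called with the largest change per comparison; named peaks are the one nearest the annotated start (or end, where no strand was given) and the one of smallest p per comparison. The most accessible peaks of Icos and Tnfrsf9 and the falling peak of Tnfsf14 were added after their values were seen. The gene of most alike pattern has the highest Pearson r among genes whose log2 CPM averaged 3 or more. The members and lists were chosen with earlier results of these data known. Alternatives were other scalings, DESeq2 1.42.0, no filter, a fit of only the groups compared, a replicate term, peaks within 2.5 kb and each library left out in turn. The procedure was tested on simulated data. Some values of the marker lists are not reported here.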

Additional observations from a re-analysis of the deposited data

How the results depend on the processing

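Among the 10 genes, the count of calls in lactate+Oxyrase against NaCl was 8 in every alternative, and in lactate+Oxyrase against lactate it was 6 to 10 (9 as reported) and in pyruvate against lactate 5 to 7 (7 as reported). In pyruvate against NaCl, 5 calls became 3 without NaCl 2 or without pyruvate 2 (3 to 5 over the libraries left out). In lactate against NaCl, 1 call became 2 with DESeq2 and without NaCl 3 (1 to 2 over the libraries left out), the second being Cd28. Of the 64 peaks, the 4 calls in lactate against NaCl became 8 with loess scaling on mean accessibility and ran from 0 to 12 with 1 library left out. The 19 calls in lactate+Oxyrase against lactate became 10 within 2.5 kb and 12 to 21 with 1 library left out, being 12 without lactate 2 or without lactate+Oxyrase 2. The 24 calls against NaCl ran from 17 to 28. The 5 calls in pyruvate against lactate became 8 with loess scaling, 3 within 2.5 kb and 1 to 7 with 1 library left out, being 1 without pyruvate 1, pyruvate 2 or lactate 3. The cause of these shifts was not tested, except that a shorter distance leaves fewer peaks to count.

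Values that changed sign were all uncalled. With 1 library left out these were Icos in pyruvate against NaCl (-0.0403 to 0.0168), and in lactate+Oxyrase against NaCl Cd28 (-0.0467 to 0.00727), Fas (-0.0413 to 0.0789), the Cd27 start peak (-0.101 to 0.0453) and the Cd70 peak at 57149425 (-0.0489 to 0.127), and in lactate+Oxyrase against lactate the Icos peak nearest an end (-0.0288 to 0.140). Loess scaling reversed the Cd27 start peak (0.129), the same Cd70 peak (-0.0965) and the Fasl start peak against lactate (0.00520), and for that Cd70 peak RLE scaling gave -0.0195 and DESeq2 -0.0196.

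The labels give same-numbered libraries no shared source. The correlations of their deviations ran from -0.151 to 0.173 over 18 pairs in ATAC and from -0.210 to -0.0794 in RNA, where the earlier adjustment by replicate number may itself set them, so the RNA values show nothing about pairing. With the replicate block, 9 peaks were called in lactate against NaCl in place of 4, Cd28 in lactate+Oxyrase against lactate had an adjusted p of 0.0617, and the count of all genes called in lactate against NaCl was 671 in place of 1140. Over all alternatives that count ran from 451 to 1724, that of pyruvate against NaCl from 1281 to 2647 (2313 as reported), and the count of all peaks from 684 to 11317 in lactate against NaCl (4857 as reported) and from 3597 to 11819 in pyruvate against lactate (8804 as reported). The low counts of Cd70 and of the Icos and second Fas peaks limit what could be detected there.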
